A study of Mus musculus with 3 samples.

Results

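Histone deacetylases remove acetyl groups from lysines of histones and of other proteins, and those that bind chromatin do so as part of corepressor complexes. The zinc-dependent enzymes were followed here in a murine model of acute promyelocytic leukemia (APL). The family other than Hdac3 was taken by gene symbol and comprised 10 genes of the 16742 listed in any library. These were Hdac1, Hdac2 and Hdac8 of class I, Hdac4, Hdac5, Hdac7 and Hdac9 of class IIa, Hdac6 and Hdac10 of class IIb, and Hdac11, the single gene of class IV. All 10 were listed in all 3 libraries, and no member was lost to a filter.

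RNA-seq had been performed on 3 libraries, with 1 library per condition and bone marrow of 3 mice pooled in each. The control was lineage-negative (lin-) marrow cells of wild-type C57BL/6 mice that carried no retrovirus. TR1 and TR9 were GFP+ marrow cells, sorted from third-generation recipients of TBLR1-RARα (TR) leukemia on the same C57BL/6 background. The labels give the age of the mice in all groups as 6 to 8 weeks. The fusion gene and GFP were expressed from 1 transcript of a retroviral vector with a viral promoter, introduced into lin- marrow cells, so GFP marks descendants of transduced cells. TR1 and TR9 each descend from 1 primary leukemic mouse. Control cells were obtained by depleting lineage-positive cells and TR cells by a GFP sort, a difference that cannot be told apart from that of the fusion gene.

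Class I enzymes are the nuclear deacetylases found in most cells, and Hdac1 and Hdac2 are the paired catalytic subunits of the Sin3, NuRD and CoREST complexes. Class IIa enzymes shuttle between cytoplasm and nucleus, bind MEF2 transcription factors and carry little deacetylase activity of their own. Hdac7 is known from lymphoid development and from endothelium. Class IIb acts largely in the cytoplasm, Hdac6 on tubulin and Hdac10 on acetylated polyamines, and Hdac11 removes fatty acyl groups. Fusion proteins of RARα are known to recruit corepressor complexes that contain deacetylases, and inhibitors of these enzymes were tested in the TR mice by the study.

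The RSEM expected counts, estimates that can hold fractions of a read, added up to 5488778 for control, 5571409 for TR1 and 5129662 for TR9. Levels between genes are given as FPKM, fragments per kilobase of transcript, scaled to the total of mapped fragments. Libraries were compared by the log2 ratio of FPKM and by an exact Poisson test on the rounded counts, with the false discovery rate (FDR) taken over all genes listed in either library. A gene was called at an FDR of at most 0.001 with a log2 ratio of 1 or more in either direction. The test compares the reads of 2 libraries and not the conditions, no difference has a replicate check, and the 95% intervals are exact and cover counting error only. The typical gene was below control, with a median log2 ratio over all genes of −0.29 in TR1 and −0.12 in TR9. Cell type markers moved with the groups. The summed FPKM of 13 erythroid genes was 3092 in control, 45.1 in TR1 and 45.4 in TR9, that of 7 primary granule genes was 4295, 21381 and 23741, and that of 11 late granulocyte genes was 110, 28972 and 9462. Against control, all 13 erythroid genes were called lower in both TR libraries. Of the primary granule genes 4 were called higher and 1 lower in both, and of the late granulocyte genes 8 higher and 0 lower. The sums do not speak for every gene between TR9 and TR1. There, 3 primary granule genes were called lower in TR9 and 0 higher, and 7 late granulocyte genes lower and 2 higher. In such bulk RNA, fewer cells of a type and less RNA per cell cannot be told apart, and the part of cell composition in the values below was not tested.

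Sequence before the start sites was examined for Hdac7, Hdac9 and Hdac11, the members that are called in a comparison below, and for Hdac5, which is set against Hdac7. RefSeq promoter windows of GRCm38.p6 were matched for 8 of the 10 genes, in 12 windows, since Hdac7 has 4 starts and Hdac9 has 2. The files do not tell which start was used, and the submitters' processing notes name another build, mm9. Of the starts printed below, those of Hdac5, Hdac11 and Hdac9 start 2 were not found near the head of a GENCODE M21 transcript. The 250 bases before each start were searched on both strands for short motifs. The first was AGGTCA, the half-site that retinoid receptors bind. For GATA factors the letters were AGATAA, and for RUNX factors they were TGTGGT. The GC box was searched as GGGCGG, next to the CCAAT box, and none of these motifs contains another. In the following runs, written 5′ to 3′ along the gene, capitals mark these matches on either strand, and bases within annotated GENCODE M21 exons were left out. Of the 4 starts of Hdac7, the window of start 1 lies wholly within such exons. Start 2, whose window held no match, is not printed either.
Hdac7 start 3, chr15:97831768-97832017 (- strand): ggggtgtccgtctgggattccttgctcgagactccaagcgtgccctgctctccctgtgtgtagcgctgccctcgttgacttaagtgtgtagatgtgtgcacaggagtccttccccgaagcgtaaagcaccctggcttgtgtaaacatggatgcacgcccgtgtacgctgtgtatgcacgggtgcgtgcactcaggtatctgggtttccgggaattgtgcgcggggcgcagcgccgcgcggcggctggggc
Hdac7 start 4, chr15:97814864-97815113 (- strand): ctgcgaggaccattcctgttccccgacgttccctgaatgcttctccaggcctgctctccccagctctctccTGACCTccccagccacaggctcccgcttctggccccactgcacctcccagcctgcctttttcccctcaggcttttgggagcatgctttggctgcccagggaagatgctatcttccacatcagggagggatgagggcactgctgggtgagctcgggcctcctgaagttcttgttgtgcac
Hdac5, chr11:102230173-102230422 (- strand): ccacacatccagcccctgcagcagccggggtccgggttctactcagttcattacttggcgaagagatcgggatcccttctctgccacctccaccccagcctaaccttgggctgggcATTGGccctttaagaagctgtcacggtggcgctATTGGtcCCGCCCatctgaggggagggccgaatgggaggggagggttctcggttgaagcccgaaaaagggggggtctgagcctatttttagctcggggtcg
Hdac9 start 1, chr12:34917096-34917345 (- strand): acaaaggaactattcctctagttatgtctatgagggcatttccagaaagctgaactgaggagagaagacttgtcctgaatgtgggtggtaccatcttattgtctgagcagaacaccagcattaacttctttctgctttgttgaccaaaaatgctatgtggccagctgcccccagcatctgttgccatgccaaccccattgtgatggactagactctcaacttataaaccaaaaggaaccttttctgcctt
Hdac9 start 2, chr12:34528890-34529139 (- strand): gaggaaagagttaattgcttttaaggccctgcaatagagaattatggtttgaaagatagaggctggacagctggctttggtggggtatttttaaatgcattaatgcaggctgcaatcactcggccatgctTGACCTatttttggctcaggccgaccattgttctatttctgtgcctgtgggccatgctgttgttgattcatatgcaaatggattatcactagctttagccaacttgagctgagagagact
Hdac11, chr6:91156565-91156664 (+ strand): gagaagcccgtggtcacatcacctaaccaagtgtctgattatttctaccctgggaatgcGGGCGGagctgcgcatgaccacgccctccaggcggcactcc

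The windows differ in composition as well as in motifs. Counts and percentages in this paragraph are of whole windows, with the exon bases that are not printed above. Of the Hdac11 window only 100 bases are printed. The half-site AGGTCA was found in 2 of the 12 windows, 1 of Hdac7 and 1 of Hdac9, each on the reverse strand, and in 14.02% of all 32851 promoter windows of the same length. GGGCGG was found in 6 of the 12 (32.74% of all) and CCAAT in 5 (33.85% of all). TGTGGT was in 3 windows, those of Hdac2, Hdac6 and Hdac8 (14.05% of all), and AGATAA in 1, of Hdac7 (9.99% of all). Both Hdac9 windows were poor in G and C, at 44.4% and 43.6%, with 0 and 2 CpG dinucleotides, while the Hdac11 window had 65.2% and 17, and that of Hdac5 60.8% and 12, beside medians of 52.4% and 6 over all windows. A match describes letters only and is no evidence of binding.

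The RNA of the family was led by class I in every library. Hdac1 had 99.67 FPKM in control, 86.82 in TR1 and 83.25 in TR9. Hdac2 had 72.04, 47.78 and 54.70 FPKM in the same order. These genes ranked first and second of the 10 in each library, and Hdac1 exceeded at least 94.5% of the listed genes everywhere. Hdac8, which deacetylates the cohesin subunit Smc3, was lower, at 12.21, 11.79 and 9.87 FPKM. Hdac3, the class I enzyme of the NCoR and SMRT complex, is not among the 10 and had 49.34, 32.73 and 37.74 FPKM.

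**Figure D1:**
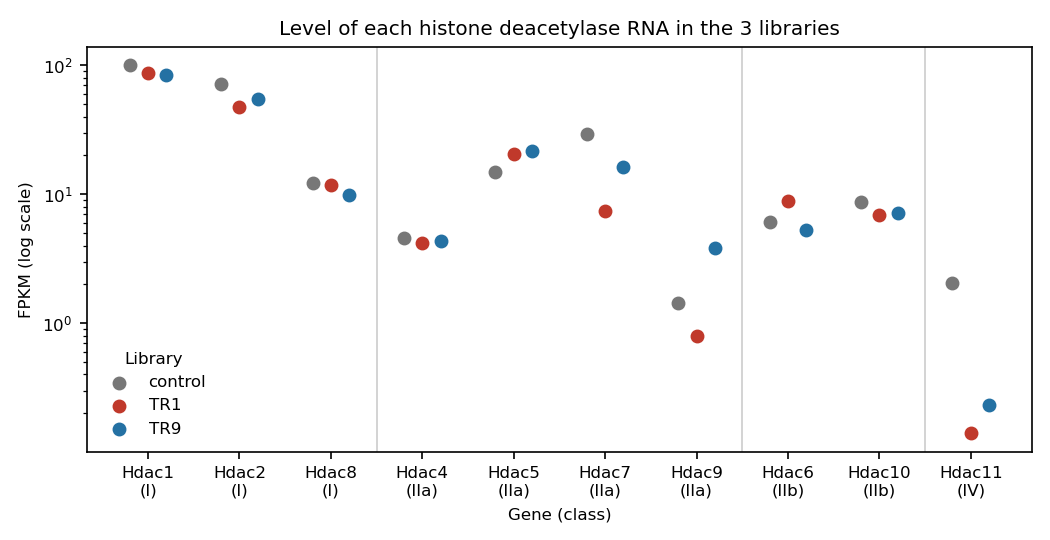
FPKM (log scale) of the 10 genes in control (grey), TR1 (red) and TR9 (blue), 1 point per library, ordered by class as in the gene labels. Hdac1 and Hdac2 are highest in all 3 libraries, and Hdac7, Hdac9 and Hdac11 show the widest spread between libraries.

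None of the class I genes was called in any of the 3 comparisons. The log2 ratio of Hdac1 was −0.20 for TR1 (95% interval −0.33 to −0.07) and −0.26 for TR9 (−0.39 to −0.13). That of Hdac2 was −0.59 (−0.75 to −0.43) and −0.40 (−0.56 to −0.24). Hdac2 passed the FDR of the exact Poisson test in both lines (1.11e-12 in TR1 and 2.16e-06 in TR9), and Hdac1 in TR9 only (2.86e-04, against 5.26e-03 in TR1), but neither reached the log2 threshold. Hdac8 had log2 ratios of −0.05 (−0.44 to 0.34) and −0.31 (−0.73 to 0.11), intervals that leave out a 2-fold change. The lower value of Hdac1 in TR1 turned to 0.04 with edgeR's TMM scaling, which sets the bulk of genes level, and that of Hdac8 to 0.19.

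The balance of the paired enzymes does not depend on how libraries are scaled. The expected counts of Hdac1 were 1076 for control, 954 for TR1 and 841 for TR9, against 791, 534 and 562 for Hdac2. The ratio of Hdac1 to Hdac2 was 1.36 in control (95% exact interval 1.24 to 1.49), 1.79 in TR1 (1.61 to 1.99) and 1.496 in TR9 (1.34 to 1.67). Hdac1 was thus the more abundant transcript in every library, with the intervals of control and TR1 apart and that of TR9 overlapping both. A processed pseudogene, Hdac1-ps, is in the RefSeq gene table but was listed in no library, and the expected counts of Hdac1 were whole numbers. Whether reads of the pseudogene were counted with Hdac1 cannot be told from these values.

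Class IIa, with 4 of the 10 genes, held 2 of the 3 members that were called in any comparison. Over all genes tested, 13.2% were called lower and 8.12% higher in TR1 against control. The shares were 10.9% and 9.48% in TR9 against control, and 2.34% and 4.41% in TR9 against TR1. Counts this small do not set the class apart from these shares. Hdac7 (NCBI Gene 56233) had 29.44 FPKM in control, 7.35 in TR1 and 16.18 in TR9, from 689, 170 and 344 expected counts. Hdac7 was the third most abundant of the 10 genes in control and the sixth in TR1. Its log2 ratio was −2.00 in TR1 (95% interval −2.25 to −1.76), a level 4.01-fold lower than control and called lower with an exact Poisson FDR of 3.17e-75. In TR9 the ratio was −0.86 (−1.05 to −0.68), which passed the FDR (1.39e-21) but not the log2 threshold. Between the libraries of the 2 lines, Hdac7 was called 2.20-fold higher in TR9 than in TR1 (log2 ratio 1.14, 95% interval 0.87 to 1.41, exact Poisson FDR 9.01e-17), although this value was 0.99 with DESeq2's median of ratios and then missed the log2 threshold. With edgeR's exact test at an assumed coefficient of variation of 0.2 between mice, the FDR of that difference was 0.161. Several marker sums had the same order of libraries, but not all. The sums of 12 megakaryocyte and platelet genes were 1150 FPKM for control, 88.1 for TR1 and 183 for TR9, with 11 of 12 called lower in both lines and 5 and 4 of them at 0, although their median was −7.33 (log2) for TR1 and −7.54 for TR9. For 12 genes of stroma and endothelium they were 705, 58.3 and 267 FPKM, with 9 lower in both, 1 higher in each line and 4 and 3 at 0, and between the lines 2 were called higher in TR9 and 1 lower. For 12 genes of stem and multipotent progenitors they were 289, 105 and 167 FPKM, with 6 lower in both, 1 higher in both, 1 called in opposite directions and 3 and 2 at 0, and between the lines 3 were called higher in TR9 and 1 lower. Those of 10 mast cell, basophil and eosinophil genes (1697, 90.0 and 94.8 FPKM, 9 lower in both, 1 and 0 at 0) and 10 cell cycle genes (1372, 645 and 685 FPKM, 5 lower in both, none at 0) differed less between the lines. In 11 listed B lineage genes the sums were 30.0, 17.2 and 201 FPKM with 0, 7 and 5 genes at 0, and Igll1 alone made 0.43, 13.30 and 194.53 of them. Other sums were highest in TR1. For 11 monocyte and macrophage genes, control, TR1 and TR9 had 343, 779 and 455 FPKM, with 5 genes lower and 2 higher in both lines. Their median log2 ratio was nevertheless −1.17 for TR1 and −1.26 for TR9. For 11 listed T and NK lineage genes they had 9.91, 175 and 86.0 FPKM, with 0, 4 and 5 genes at 0. Few genes carried these sums, as 2 were called higher in TR1 and 1 in TR9, and 0 lower in either. Over the 8 T and NK genes with more than 3 counts, the median log2 ratio was −1.01 for TR1 and −2.75 for TR9. The part of these cells in the values of Hdac7 was not tested.

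Hdac5, another class IIa repressor of MEF2 factors, lay above control in both lines. It (NCBI Gene 15184) had 14.95 FPKM in control, 20.33 in TR1 and 21.55 in TR9. Its log2 ratio was 0.44 in TR1 (0.23 to 0.66) and 0.53 in TR9 (0.31 to 0.74), with FDRs of the exact Poisson test of 7.42e-05 and 2.67e-06, but it stayed under the log2 threshold in both. The ratio of Hdac7 to Hdac5 expected counts, a pair singled out after the values were seen, was 2.19 in control (95% exact interval 1.91 to 2.51), 0.390 in TR1 (0.325 to 0.467) and 0.809 in TR9 (0.700 to 0.935). Hdac7 was therefore the more abundant of the pair in control and Hdac5 in both leukemias, with no overlap among the 3 intervals. Of the class IIa FPKM, Hdac7 made 58.4% for control, 22.5% for TR1 and 35.3% for TR9, and Hdac5 made 29.7%, 62.3% and 47.0%.

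**Figure D2:**
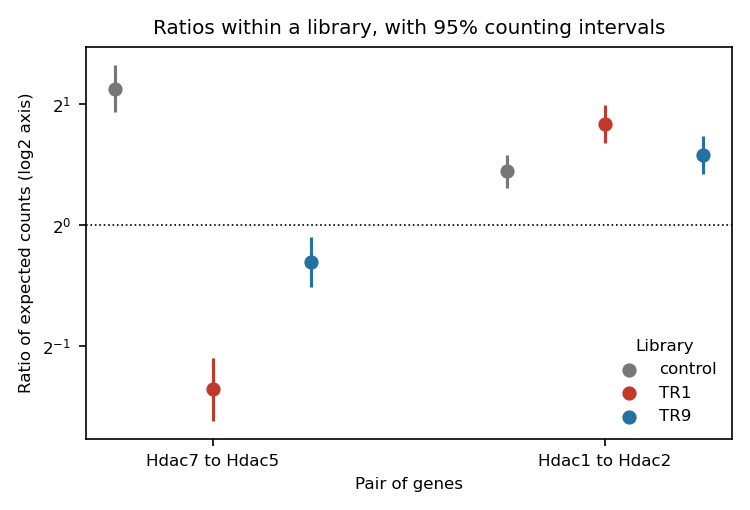
Ratio of expected counts of Hdac7 to Hdac5 and of Hdac1 to Hdac2 within control (grey), TR1 (red) and TR9 (blue), on a log2 axis, with 95% exact counting intervals as bars and a dotted line at a ratio of 1. Hdac7 to Hdac5 falls from 2.19 in control to 0.390 in TR1 and 0.809 in TR9, whereas Hdac1 to Hdac2 stays above 1 in all 3 libraries.

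The libraries of TR1 and TR9 lay on opposite sides of control for a low class IIa gene. Hdac9 (NCBI Gene 79221), a class IIa enzyme that also binds MEF2 factors, had 1.44 FPKM in control, 0.79 in TR1 and 3.82 in TR9, from 41, 21 and 102.04 expected counts. Hdac9 was called higher in TR9 than in control, by a log2 ratio of 1.41 (95% interval 0.87 to 1.97, exact Poisson FDR 1.21e-07), and lower in TR1 without a call (−0.87, −1.70 to −0.07, FDR 0.0216). Between the lines it was 4.84-fold higher in TR9 (log2 ratio 2.27, 1.59 to 3.03, exact Poisson FDR 1.90e-14). The call against control was lost with a pseudocount of 1 FPKM, where the ratio was 0.98, and in edgeR with the assumed variation, where the FDR was 0.0322. The expected count in TR9 was not a whole number. Hdac4, the remaining class IIa gene, a repressor of MEF2 factors known from bone and muscle, had 4.57, 4.17 and 4.30 FPKM and log2 ratios of −0.13 in TR1 (−0.56 to 0.29) and −0.09 in TR9 (−0.52 to 0.34).

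The class IIb genes were not called in any comparison. Hdac6 had 6.09 FPKM in control, 8.78 in TR1 and 5.23 in TR9, so that only TR1 was above control. Its log2 ratio was 0.53 in TR1 (0.21 to 0.85, exact Poisson FDR 2.10e-03) and −0.22 in TR9 (−0.60 to 0.15), and the log2 ratio of TR9 against TR1 was −0.75 (−1.10 to −0.41, FDR 5.62e-05). Hdac10 had 8.65, 6.94 and 7.20 FPKM, with log2 ratios of −0.32 (−0.71 to 0.07) and −0.27 (−0.66 to 0.13). Hdac6 thus made 41.3% of the class IIb FPKM in control, 55.9% in TR1 and 42.1% in TR9.

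Hdac11 (NCBI Gene 232232) was called lower in both leukemias. It had 2.04 FPKM in control, 0.14 in TR1 and 0.23 in TR9, from 28, 2 and 3 expected counts. The log2 ratio for TR1 was −3.87 (95% interval −6.98 to −1.88, exact Poisson FDR 1.31e-06), and for TR9 it was −3.15 (−5.51 to −1.45, FDR 2.02e-05). The counts are few and the intervals wide, the TR values lie at or under 3 counts, and the TR9 call was lost in edgeR with the assumed variation (FDR 2.79e-03). The lines did not separate at this depth, with a log2 ratio between TR9 and TR1 of 0.72 (−2.41 to 4.30).

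Against control, 2 of the 10 genes were called lower in TR1 (Hdac7 and Hdac11) and 0 higher, where 13.2% of 16282 genes tested were called lower and 8.12% higher. At an unadjusted p under 0.05, 5 members were below control in TR1 and 2 above (Hdac5 and Hdac6), and edgeR with the assumed variation also called 0 higher. In TR9, 1 was called lower (Hdac11) and 1 higher (Hdac9), where 10.9% and 9.48% of 16303 genes were. By the unadjusted p, 4 members were below control in TR9 and 2 above. Between the lines, 2 were called higher in TR9 (Hdac7 and Hdac9) and 0 lower, against 4.41% and 2.34% of 15706 genes. Here 3 members were higher in TR9 and 1 (Hdac6) was lower at an unadjusted p under 0.05. With edgeR and the assumed variation, 0 members were called lower in TR9 than in TR1. Both TR comparisons share the control library. Hdac11 was the only member called in both of them, as were 8.51% of all listed genes in the lower direction. The median log2 ratio of the 10 genes was −0.26 in TR1 and −0.26 in TR9, beside −0.29 and −0.12 over all genes. In each line 8 of the genes were below control and 2 above. TMM scaling turned 3 of these ratios above control in TR1 (Hdac1, Hdac4 and Hdac8) and 1 in TR9 (Hdac4). Under it all genes had a median log2 ratio of −0.05 for TR1 and −0.01 for TR9, and lower genes made 49.2% of all calls in TR1 in place of 61.9%, and 45.1% of those in TR9 against TR1 in place of 34.7%.

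**Figure D3:**
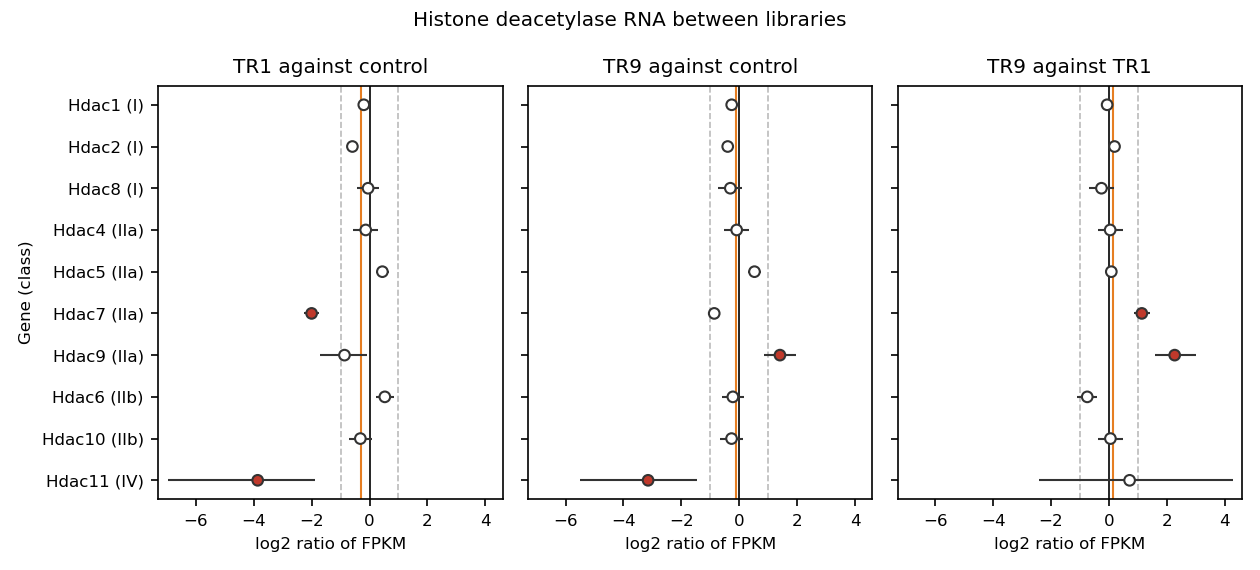
Log2 ratio of FPKM of the 10 genes (points) with 95% exact counting intervals (bars) for TR1 against control, TR9 against control and TR9 against TR1, where red points were called, dashed lines mark a log2 ratio of −1 and 1, and the orange line is the median over all genes. Hdac7 and Hdac11 are called lower in TR1, Hdac11 lower and Hdac9 higher in TR9, and Hdac7 and Hdac9 higher in TR9 than in TR1.

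Compared by class, the summed FPKM of the 10 genes was 251.1 in control, 194.89 in TR1 and 206.33 in TR9. Class I made 73.2% of it in control, 75.1% in TR1 and 71.6% in TR9. Class IIa made 20.1%, 16.7% and 22.2%, class IIb 5.87%, 8.07% and 6.02%, and class IV 0.812%, 0.0718% and 0.111%. As shares of expected counts, which weight long transcripts more, class IIa had 33.5% in control (95% exact binomial interval 31.9 to 35.1), 27.4% in TR1 (25.7 to 29.2) and 36.1% in TR9 (34.3 to 38.0). The TR1 interval lay below the other two, while those of control and TR9 overlapped. Class IIb had 7.69% in control (6.82 to 8.64), 11.5% in TR1 (10.3 to 12.8) and 7.72% in TR9 (6.73 to 8.80). The log2 ratio of the summed FPKM was −0.33 in TR1 and −0.32 in TR9 for class I, −0.63 and −0.14 for class IIa, and 0.09 and −0.25 for class IIb. The class totals hide opposite members, because class IIa in TR9 joined Hdac7, below control, to Hdac5 and Hdac9, above it.

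**Figure D4:**
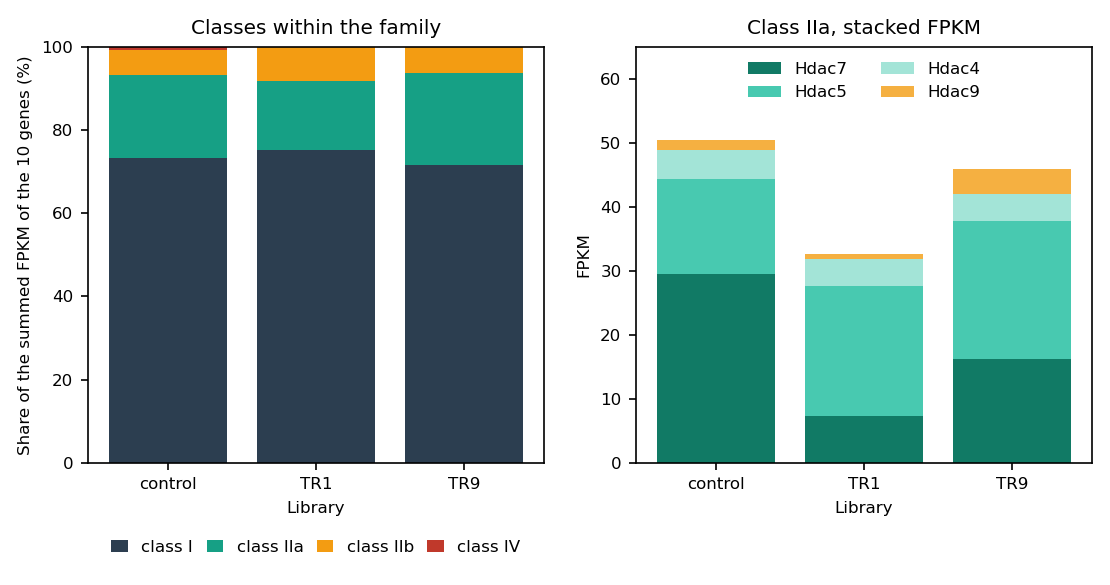
Left, share of the summed FPKM of the 10 genes (%) taken by each class in each library. Right, FPKM of the class IIa genes stacked by library, where Hdac7 is the largest part in control (29.44 of 50.4 FPKM) and Hdac5 in TR1 (20.33 of 32.64) and TR9 (21.55 of 45.85).

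Several members have more than 1 transcript in the files, and the gene length that RSEM reports is the mean over transcripts weighted by their estimated abundance. Hdac7, with 8 transcripts, had a length of 4231 bases in control, 4110 in TR1 and 4108 in TR9. Hdac9, with 2, had 5130, 4744 and 5157 bases. Hdac10, with 4, had 2646, 2572 and 2565 bases, whereas Hdac5 and Hdac6, with 2 each, differed by less than 1 base between libraries. Transcripts were not counted separately in the files. On expected counts without length the log2 ratio of Hdac9 was −0.99 in TR1 and that of Hdac7 was −2.04, and no call among the members changed.

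Genes that work with the members were followed in lists, whose counts are to be read against the shares over all genes, 13.2% lower and 8.12% higher in TR1 and 10.9% lower and 9.48% higher in TR9. The 16 genes of the Sin3 complex, which carries Hdac1 and Hdac2, had 1 gene called lower and 1 higher in TR1 and 0 in TR9, with median log2 ratios of −0.34 and −0.05. At TMM scaling 0 were called lower in TR1. Of 13 genes of the NuRD complex, 2 were called lower in each line and 0 higher, near the share over all genes, with medians of −0.70 and −0.55. Mta3, a NuRD scaffold, had 53.32 FPKM for control, 19.33 for TR1 and 25.59 for TR9. Chd3, a chromatin remodeler, had 15.43, 6.91 and 5.80, and with TMM scaling 1 NuRD gene was called lower in each line. The highest level in control was that of Cdk2ap1 for NuRD (189.88, 128.08 and 104.14 FPKM) and that of Rbbp7, a histone chaperone of both complexes, for Sin3 (160.64, 83.16 and 83.01 FPKM), and neither was called. Of 8 CoREST and MiDAC genes, 2 were called lower in TR1 and 1 in TR9, counts too small to set apart from 13.2% and 10.9% of all genes. Rcor2, a CoREST scaffold, had 72, 2 and 6 expected counts, and its log2 ratio was −5.17 for TR1 (95% interval −8.24 to −3.26) and −3.50 for TR9 (−5.00 to −2.31). Its more abundant relative Rcor1 had 49.93, 19.97 and 36.11 FPKM and was called in TR1. The CoREST and MiDAC medians were −0.58 and −0.34. None of the 6 NCoR and SMRT genes was called, with medians of −0.38 and −0.29, and Gps2, a subunit of that complex, was the highest in control (82.81, 59.34 and 52.09 FPKM), while Ncor1 was above it in TR1 and TR9 (70.45, 69.42 and 93.45 FPKM).

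Of 11 MEF2 and 14-3-3 genes that bind class IIa enzymes, 10 had more than 3 counts in a library. Of these 1 was called lower in each line, 0 were called higher in TR1 and 1 in TR9, with medians of −0.59 and −0.41. Mef2c, a transcription factor that class IIa enzymes repress, was called lower in both lines. Its level was 26.27 FPKM for control, 3.09 for TR1 and 7.41 for TR9, with a log2 ratio of −3.09 for TR1 (95% interval −3.38 to −2.80) and −1.83 for TR9 (−2.03 to −1.62). Mef2c was 1.26 higher on the log2 scale in TR9 than in TR1 and was called there. Its order over the libraries (control, TR9, TR1) was that of Hdac7, but also that of Hdac2, Hdac4, Hdac10 and Hdac11, and of Hdac3. With 3 libraries, no likeness of pattern between genes was measured. Of the 14-3-3 genes, whose products hold class IIa enzymes in the cytoplasm, Ywhae was the most abundant at 444.94, 297.08 and 294.34 FPKM and was not called. Sfn was called higher in TR9 only, with 21, 51 and 50 counts, and its log2 ratio between TR9 and TR1 was 0.09 (−0.50 to 0.69).

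The kinases that phosphorylate class IIa enzymes split. Of 15 listed, 4 were called higher in both lines (Prkd2, Camk2a, Camk2d and Camk4) and 2 lower in both (Camk1d and Sik1), with median log2 ratios of −0.25 and 0.12. Stk11, the kinase upstream of the SIK family, was highest in control (77.41, 56.65 and 52.68 FPKM) and was not called. Camk2a, a calcium- and calmodulin-dependent kinase, had 2.86 FPKM for control, 18.36 for TR1 and 18.55 for TR9, with a log2 ratio of 2.68 for TR1 (95% interval 2.33 to 3.07) and 2.70 for TR9 (2.34 to 3.09). Camk4 had 0.38, 2.13 and 1.61 FPKM. Prkd2, a protein kinase D, was named after its values were seen and had 7.65, 22.97 and 29.54 FPKM. Camk1d had 86, 6.77 and 8 expected counts. Over all listed genes, 5.71% were called higher in both lines and 8.51% lower in both. With a pseudocount of 1 FPKM, 2 were called higher in TR9 and 1 lower in each line.

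**Figure D5:**
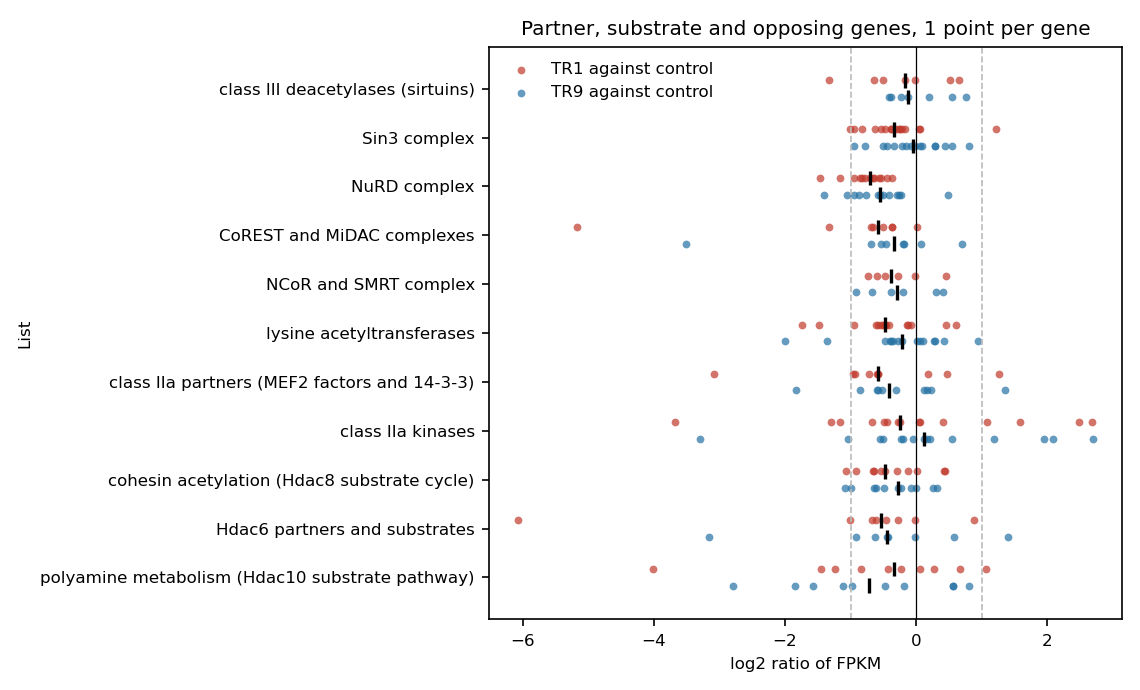
Log2 ratio of FPKM against control for each gene of the 11 lists in TR1 (red) and TR9 (blue), with black bars at the list medians and dashed lines at −1 and 1, leaving out genes with 3 counts or fewer in both libraries. Most genes lie between −1 and 1, and the class IIa kinases hold points on both sides beyond the lines.

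For the substrates and pathways of single members, Esco2, an acetyltransferase of Smc3 that opposes Hdac8, was the only one of 11 cohesin genes called, lower in both lines at 23.23, 11.07 and 10.90 FPKM, and with TMM scaling it was not called in either. The cohesin medians were −0.47 and −0.27, and Rad21, a core subunit, was highest at 139.07, 140.25 and 131.14 FPKM. Of 8 Hdac6 partners and substrates, 1 was called lower in each line, 0 higher in TR1 and 1 higher in TR9, with medians of −0.54 and −0.44. Cttn, the actin-binding cortactin, had 391, 6 and 41 expected counts, and its log2 ratio was −6.07 for TR1 (95% interval −7.52 to −4.93) and −3.16 for TR9 (−3.66 to −2.69). Hsp90ab1, a chaperone and the most abundant of that list, had 1439.25, 1186.95 and 1072.34 FPKM and was not called. Of 11 polyamine genes, the pathway of the Hdac10 substrate, 10 had more than 3 counts in a library, with medians of −0.33 and −0.72. In TR1 3 were called lower and 1 higher, in TR9 4 were called lower and 0 higher, and Smox, Sms and Amd1 were called lower in both, where 13.2% of all genes were lower in TR1, 10.9% in TR9 and 8.51% in both. Oaz1, an inhibitor of polyamine synthesis, was highest at 258.39, 192.46 and 227.15 FPKM. Smox, spermine oxidase, had 13.26, 0.82 and 1.92 FPKM, and Sms, spermine synthase, had 34.72, 12.71 and 9.66. Amd1, which supplies the aminopropyl donor, had 114.65, 48.38 and 38.63 FPKM. The opposing enzymes, 15 lysine acetyltransferases, had 2 genes called lower in both lines and 0 higher in either, near the 13.2% and 10.9% of all genes called lower in TR1 and TR9, with medians of −0.47 and −0.22. Hat1, which acetylates new histone H4, had 74.26, 26.64 and 28.86 FPKM, and Nat10 had 38.19, 11.48 and 9.53. Of 7 sirtuins, the NAD-dependent class III deacetylases, 0 were called in either line, their medians were −0.18 and −0.13, and Sirt2, a tubulin deacetylase, was narrowly the highest in control (35.91, 25.38 and 27.40 FPKM), while Sirt7 was above it in TR1 and TR9 (35.34, 50.34 and 51.45 FPKM).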

How the data were processed

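RNA-seq values of 3 libraries (control, TR1 and TR9) were analysed, grouped by their labels. The authors filtered reads, aligned them (BWA and Bowtie) and estimated gene levels by RSEM, and the processing notes name mm9 (versions are not given in the sources used here). The expected counts that the authors deposited are estimated and not normalized, and were rounded for the tests. The FPKM that the authors deposited are scaled for gene length and library total, and values under 0.01 were set to 0.01. The gene length, in bases, was deposited beside them. Genes not listed in a library were taken as 0. Of 16742 gene IDs, 16698 were matched to RefSeq symbols (GRCm38.p6, names only). Promoters are from RefSeq, and exons from GENCODE M21.

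Each pair of libraries was compared over all genes by an exact Poisson test conditional on the summed count (binomial test of scipy 1.17.1), with p-values adjusted by the Benjamini-Hochberg method, following the study's Poisson method and thresholds. Intervals are Clopper-Pearson. The Poisson test was checked on Poisson counts simulated from the real means, with 200 genes changed, none of them with few counts. Such counts hold no variation between mice, so this checks the calculation only.

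Members and lists were chosen with earlier results of these data known. Genes named were the 10 members, Hdac3, and in each of 11 lists the 3 furthest changed genes called in the same direction in both lines and the gene highest in control. Prkd2, Camk2d, Sik1, Sfn, Igll1, Ncor1, Sirt7 and the ratio of Hdac7 to Hdac5 were chosen after their values were seen. Prkd1 and Pax5 were listed in no library. Of 12 marker lists, those for granulocytes, monocytes, erythroid cells, megakaryocytes, stroma, stem cells, mast cells, the cell cycle, the B lineage and the T and NK lineage are given in the text.

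Alternatives were TMM scaling (edgeR 4.0.16), the median of ratios (DESeq2 1.42.0), TPM scaling, a pseudocount of 1 FPKM, expected counts without length, a minimum of 10 expected counts, edgeR's exact test with an assumed coefficient of variation of 0.2, an FDR of 0.05 and no log2 threshold. Python 3.11.15 and R 4.3.3 were used.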

Additional observations from a re-analysis of the deposited data

Results flagged for a closer look

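The TR9 and TR1 libraries were tested against each other directly, and 2 of the 10 members were called higher in TR9 and 0 lower, where 4.41% of all genes were called higher and 2.34% lower. Hdac7 was higher in TR9, with a log2 ratio of 1.14 from 344 expected counts against 170. This call was lost with the median of ratios (log2 ratio 0.99) and in edgeR with the assumed variation (FDR 0.161), which left 1 member, Hdac9. Hdac9 was higher in TR9, with a log2 ratio of 2.27 from 102.04 expected counts against 21. Each line is 1 pooled library, so that a difference between lines and one between libraries cannot be told apart.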

How the results depend on the processing

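The lower values of Hdac7 and Hdac11 in TR1 remained called under every alternative that gave them a value. With TMM scaling 23 of the 30 member ratios kept direction and call and 7 changed sign. In TR1 against control these were Hdac1 (0.0397), Hdac8 (0.188) and Hdac4 (0.107), in TR9 against control Hdac4 (0.0186), and in TR9 against TR1 Hdac4 (−0.0881), Hdac5 (−0.0483) and Hdac10 (−0.0793). The median of ratios gave 0.0406, 0.189, 0.108, 0.0074, −0.100, −0.0605 and −0.0915 for them, and left 1 member called higher in TR9 than in TR1. TPM scaling turned Hdac1 in TR9 against TR1 to 0.0557. With no log2 threshold, 3 members were called lower and 1 higher in TR1, 4 lower and 2 higher in TR9, and 1 lower in TR9 than in TR1. With a pseudocount of 1 FPKM, 0 were called higher in TR9. In edgeR with an assumed variation of 0.2, 0 were called lower and 0 higher in TR9, and 1 higher in TR9 than in TR1. By expected counts, class I held 58.0%, 61.0% and 56.1% in control, TR1 and TR9, class IIa 33.5%, 27.4% and 36.1%, and class IIb 7.69%, 11.5% and 7.72%. With Hdac3 added, class I held 77.6%, 78.7% and 76.0%, class IIa 16.8%, 14.3% and 18.8%, and class IIb 4.91% in control. In the lists, TMM scaling left 0 Sin3 genes lower in TR1, 1 NuRD gene lower in each line, 1 class IIa kinase lower in each line and 0 cohesin genes lower in either, and it added 1 acetyltransferase higher in TR9 and 1 class IIa partner and 1 Hdac6 partner higher in TR1. A pseudocount of 1 FPKM left 0 Sin3 genes lower in TR1, 1 kinase lower in each line and 2 kinases higher in TR9.

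The split of all calls moved with scaling. In TR1 against control 61.9% of called genes were lower, beside 49.2% with TMM and 73.3% with TPM scaling. In TR9 against control the shares were 53.6%, 46.8% and 60.5%, and in TR9 against TR1 they were 34.7%, 45.1% and 27.2%. No paired analysis was possible because each condition has 1 library, and for the same reason no library could be left out. Depth limits Hdac11 most, with 28 expected counts in control and 2 and 3 in the leukemias.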
